A study of Triticum aestivum with 96 samples.

Results

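In the flag leaf of bread wheat (Triticum aestivum, cultivar Mace), 117 of 139118 listed genes had a strong daily wave in mature leaves and a shallow one in senescent leaves. They were chosen by a rule on the same libraries. A gene needed a mean of at least 50 scaled counts (read counts multiplied by a factor for each library) in each stage, which 20577 genes had. In each stage a 24 h cosine and sine with a straight line over time were fitted to log2(scaled count + 2), and the fitted height from trough to peak (peak-to-trough) had to be at least 1 log2 in mature leaves and under 0.6 log2 in senescent leaves. The mature threshold was met by 2713 genes, and 117 of them met the senescent one, so the cap of 150 genes was not reached. The mirrored rule, with a strong senescent and a shallow mature wave, was met by 188 genes.

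The flag leaf is the uppermost leaf of a wheat tiller and a main supplier of sugars to the grain. When it senesces, chlorophyll and leaf proteins are broken down and their nitrogen and minerals are moved to the grain. The circadian clock of plants is a network of transcription factors that repress each other at successive times of day, with components that act in the morning and others in the evening, and it keeps running in constant light. Its output genes carry the daily wave into photosynthesis, starch turnover, stress responses and hormone signalling, and in Arabidopsis clock components also influence the timing of leaf senescence.

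All plants were Mace and shared a growth room, where the 2 stages were sown 28 days apart. The room ran 12 h of light at 20 °C and 12 h of dark at 15 °C and was then kept in light at 20 °C from a dawn called Zeitgeber time 0 (ZT0, in hours). Mature plants were at ear emergence (Zadoks stage 51 to 59), and the flag leaves of senescent plants had visibly lost chlorophyll. From ZT45 to ZT91, leaves of 4 plants per stage were taken at 2 h intervals, and RNA of 2 leaves was pooled into each library, which gave 24 time points with 2 replicates and 48 libraries per stage. Stage and sowing batch coincide and cannot be told apart. In RNA from whole leaves, fewer cells of a type and less RNA per cell cannot be told apart either.

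The estimated reads per library ranged from 5315514 to 9280638 in mature leaves (median 6726061) and from 4789060 to 11831486 in senescent leaves (median 6919316). Replicates taken at the same hour correlated with a median r of 0.94 across genes in the mature stage and 0.96 in the senescent stage. The libraries least like their stage were mature replicate 1 at ZT91, with a median correlation of 0.858 to the other mature libraries, and mature replicate 2 at ZT45, with 0.872. Without both, an alternative chosen after seeing the data, 98 genes met the rule, 87 of them among the 117. The identifiers are of a Mace annotation, and 0 of 139118 matched the reference gene table used here, so genes are given by identifier, which carries the chromosome, and no role is given to any of them. The chlorophyll loss of the senescent leaves therefore could not be checked against marker genes. How reads common to the A, B and D homoeologues were assigned is not given in the sources used here, so the value of a single copy is uncertain.

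The waves that chose the genes are a description and carry no test. Over the 117 genes the median peak-to-trough was 1.13 log2 in mature leaves (range 1.00 to 2.27) and 0.47 log2 in senescent leaves (range 0.05 to 0.60). The difference, mature minus senescent, had a median of 0.70 log2 and ranged from 0.41 to 1.74. The other 2596 genes with a mature wave of at least 1 log2 had medians of 1.44 log2 when mature and 1.45 log2 when senescent. The 117 genes were therefore a small corner of a population whose wave was as high in senescent as in mature leaves, as the plot of both waves shows.

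**Figure D1:**
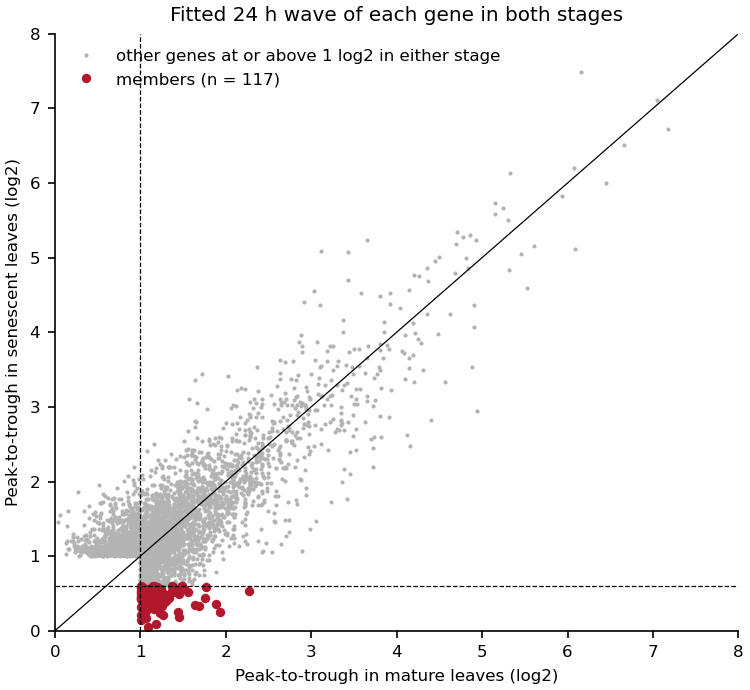
Fitted 24 h peak-to-trough (log2) in mature leaves (x axis) and senescent leaves (y axis) of each gene with a mean of at least 50 scaled counts in both stages and at least 1 log2 in either stage. The 117 chosen genes (red) lie right of the dashed line at 1 log2 and under the dashed line at 0.6 log2, while most other genes (grey) lie along the diagonal of equal waves.

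Genes just inside and just outside the thresholds had nearly equal values. On the mature threshold, TraesMAC1D03G00499270 was inside at 1.0025 log2 and TraesMAC6D03G03769620 outside at 0.99952 log2. On the senescent threshold, TraesMAC7A03G04017480 was inside at 0.59902 log2 and TraesMAC1A03G00071710 outside at 0.6045 log2. On the mean, TraesMAC3A03G01425310 was inside at 50.59 scaled counts in mature leaves and TraesMAC7B03G04085390 outside at 49.61 in senescent leaves. The standard errors of the mature waves at these edges, such as 0.13 log2 for TraesMAC1D03G00499270, were far larger than the distance to the threshold.

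In most of the genes the shallow wave was still a called rhythm. In limma, at a Benjamini-Hochberg adjusted p under 0.05 over 42428 genes with a mean of at least 10, a 24 h rhythm was called for 115 of the 117 genes in mature leaves, where 49.2% of all tested genes were called. In senescent leaves 82 of the 117 (70.1%) were still called rhythmic, against 63.5% of all tested genes, 73.5% of those with a mean of at least 50 and 98.5% of the 2713 strong ones. A different rhythm between the stages was called for 79 (67.5%), against 11.5% of all tested genes. Among genes with a mean of at least 50 it was called for 16.6%, and among the 2713 strong ones for 47.6%. The rule used these contrasts, so the counts describe the choice and support nothing. By class, 82 genes were rhythmic in both stages, 33 in mature leaves alone and 2, TraesMAC5D03G03046980 and TraesMAC7A03G04031220, in neither. Over the 42428 tested genes these classes held 17168, 3709 and 11792. The rhythm difference itself was called for 22 of the 33 and 57 of the 82, and over all tested genes for 529 of the 3709 and 3414 of the 17168.

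The heights of the waves were then read in each replicate and each cycle apart. In replicate 1 alone 74 of the 117 genes met the wave thresholds, in replicate 2 alone 72, and in both 41. In the first cycle (ZT45 to ZT67) 62 met them, in the second (ZT69 to ZT91) 39, and in both 18. The mature wave was the higher of the 2 stages in both replicates for 116 genes and in both cycles for 113. Among the 2713 strong genes it was so for 1195 and 1070, and among the 20577 for 6217 and 6302. With the mean taken over all libraries of a stage, 180 and 161 of the 20577 genes met the thresholds in replicates 1 and 2. In the first and second cycle 735 and 120 did. These libraries chose the 117 genes, so the counts describe the choice and support nothing. The mature wave itself was lower in the second cycle: its median over the genes was 1.45 log2 in the first and 1.02 log2 in the second, and it fell for 92 of the 117 genes (78.6%, against 67.6% of the 2713 genes with a strong mature wave). The senescent medians were 0.54 and 0.45 log2.

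**Figure D2:**
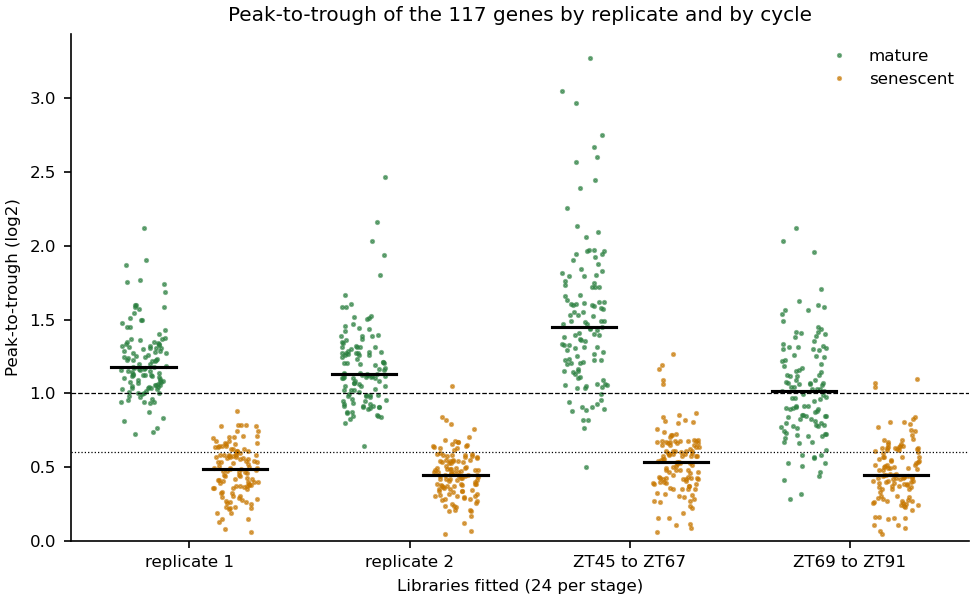
Peak-to-trough (log2) of the 117 genes fitted in the libraries of each replicate number and of each 24 h cycle (24 libraries per stage), in mature (green) and senescent (orange) leaves; black bars are medians, and the dashed and dotted lines mark 1 and 0.6 log2. The mature median falls from 1.45 log2 in the first cycle to 1.02 log2 in the second, and the senescent medians lie near or under the dotted line.

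Only 14 genes met the thresholds in each replicate and each cycle. By size of the difference they were led by TraesMAC4D03G02512870, TraesMAC3B03G01656940, TraesMAC1B03G00364530 and TraesMAC6A03G03251080. Of the 14, 8 peaked from 6 to 12 h, such as TraesMAC4B03G02383990 at 7.88 h and TraesMAC3B03G01635850 at 7.47 h, 4 peaked from 18 to 24 h, such as TraesMAC4D03G02512870 at 20.4 h, and 2 peaked from 0 to 6 h. TraesMAC3B03G01635850 had the smallest error of the 14, with 1.19 ± 0.085 log2 when mature and 0.39 ± 0.059 log2 when senescent (SE). With every library set to the same total, its senescent wave was 0.63 log2, over the threshold.

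The rule was also applied to part of the libraries and its choice tested in the rest, which the choice had not used. Of 150 genes chosen in replicate 1, the rhythm difference was called in replicate 2 for 20 (13.3%, against 2.19% of all tested genes; limma, adjusted p under 0.05). Their median waves there were 0.96 log2 when mature and 0.49 log2 when senescent, and 38 met the thresholds again (25.3%, against 0.782% of the 20577 genes). Of 150 genes chosen in replicate 2, 15 were called in replicate 1 (10%, against 1.56%), with medians of 1.04 and 0.63 log2. Replicates of a time point share the growth room and the hour, so this compares leaves and libraries only. With all libraries the rhythm difference was called for 47.6% of the 2713 strong genes, against 11.5% of all tested genes. Whether the chosen genes were called more often than strong genes in general was not tested, here or between cycles.

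Between cycles the transfer depended on the direction. Of 115 genes chosen in the second cycle, 29 were called in the first (25.2%, against 10.2% of all tested genes in limma), the medians there were 1.03 log2 when mature and 0.62 log2 when senescent, and the mature wave was higher for 81.7% of them, against 60.4% of the 20577 genes. Of 755 genes that met the thresholds in the first cycle, the 150 with the largest difference were tested in the second. There 36 were called (24%, against 6.58%), yet the median waves were 0.55 log2 when mature and 0.51 log2 when senescent, and the mature wave was higher for 44.7%, against 44.5% of the 20577 genes. The rhythm test responds to a change of phase as well as of height. Of these 150 genes, 9 met the thresholds again in the second cycle (6%, against 0.583% of the 20577 genes).

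The single genes show what flattening looked like in scaled counts. TraesMAC5B03G02964470 on chromosome 5B had the largest difference. Its values in mature leaves ran from 80.6 through a median of 502 to 1213, and in senescent leaves from 67.5 through 279 to 895. The ranges overlapped almost fully. At the clock hour of the highest mature mean (ZT modulo 24 h), 9 h, mature leaves held 1078 ± 118 and senescent leaves 316.5 ± 31.8 scaled counts (SD, n = 4 libraries each, from 2 replicates in 2 cycles). At the hour of the lowest, 3 h, they held 134.7 ± 44.3 and 145.6 ± 58.8. At the high hour the stages did not overlap, and at the low hour they did. Here and for the genes below, the hours were picked as the extremes of the mature means, which favours a mature contrast.

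The fitted wave of TraesMAC5B03G02964470 was 2.27 ± 0.26 log2 when mature and 0.53 ± 0.30 log2 when senescent (SE), yet its senescent series was not flat. Its senescent wave was 0.33 log2 in replicate 1 and 0.76 log2 in replicate 2. In the first and second cycle it was 0.69 and 1.07 log2, so the gene met the thresholds in replicate 1 alone. Senescent values reached 451.4 and 895 at ZT71 and 590.7 and 733.2 at ZT87, and were 229.5 and 70.8 at ZT85. A 12 h wave of 0.97 log2 in senescent leaves did not pass the test (limma adjusted p 0.0745). A mature one of 0.88 log2 did not pass either (adjusted p 0.084), nor did their difference (adjusted p 0.719). The low senescent 24 h height of this gene therefore describes a series that a 24 h cosine follows poorly.

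TraesMAC4D03G02512870 on chromosome 4D had a lower senescent wave around a falling level, at -1.18 ± 0.19 log2 over the series (SE, limma adjusted p 7.51e-06). It ranged from 70.8 through a median of 207 to 1195 scaled counts in mature leaves and from 48.6 through 118 to 309 in senescent leaves. At 23 h mature leaves held 757 ± 397 and senescent leaves 126 ± 46.8 (SD, n = 4 each). At 5 h the values were 124 ± 43.9 and 125 ± 54.4. The 4 mature libraries at the high hour all exceeded the 4 at the low hour, while the senescent ones overlapped. Hours picked on the mature means, in a gene chosen for its waves, make this likely, so it is a description. The senescent time average lay at the fitted mature trough. Its wave was 1.94 ± 0.30 log2 when mature and 0.26 ± 0.16 log2 when senescent (SE).

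TraesMAC3A03G01491760 on chromosome 3A settled in the middle of its mature range. Its mature values ran from 45.9 through 144 to 368, and its senescent values from 60.0 through 128 to 267. At 19 h it held 266 ± 71.02 scaled counts in mature and 162.5 ± 38.1 in senescent leaves, and at 5 h 57.2 ± 11.5 and 129 ± 37.5 (SD, n = 4 each). Its peak was lower and its trough higher, and its time-averaged level did not pass the test, with a log2 change of -0.04 ± 0.083 (SE, limma adjusted p 0.644). In the second cycle its senescent wave was 0.79 log2, over the threshold.

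TraesMAC4B03G02243910 and TraesMAC4D03G02428120, which peaked at 3.69 and 2.64 h, had a far higher mature wave in the first cycle. TraesMAC4B03G02243910 had a mature wave of 2.75 log2 in the first cycle and 1.15 log2 in the second, and TraesMAC4D03G02428120 had 3.28 and 1.33 log2. The mature maximum of TraesMAC4D03G02428120 was 967 scaled counts against a median of 119. Both fell through the mature series, by 1.64 ± 0.29 log2 for TraesMAC4B03G02243910 (SE, limma adjusted p 0.000298) and 1.56 ± 0.38 log2 for TraesMAC4D03G02428120 (adjusted p 0.0107) over the series.

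TraesMAC1A03G00087600 was the most level of the 10 largest differences. Its mature values ran from 189 through 584 to 1132 scaled counts and its senescent values from 456 through 655 to 1111. Its senescent wave was 0.10 ± 0.11 log2 and its mature wave 1.18 ± 0.19 log2 (SE), with a mature peak at 12.7 h. Its lowest mature values lay far under any senescent value, and the maxima of both stages were alike. TraesMAC3B03G01656940 had noisier values: its mature replicates differed by an SD of 1.07 log2 within a time point, against a median of 0.39 log2 over the 117 genes, and its rhythm difference did not pass the test (limma adjusted p 0.0938).

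**Figure D3:**
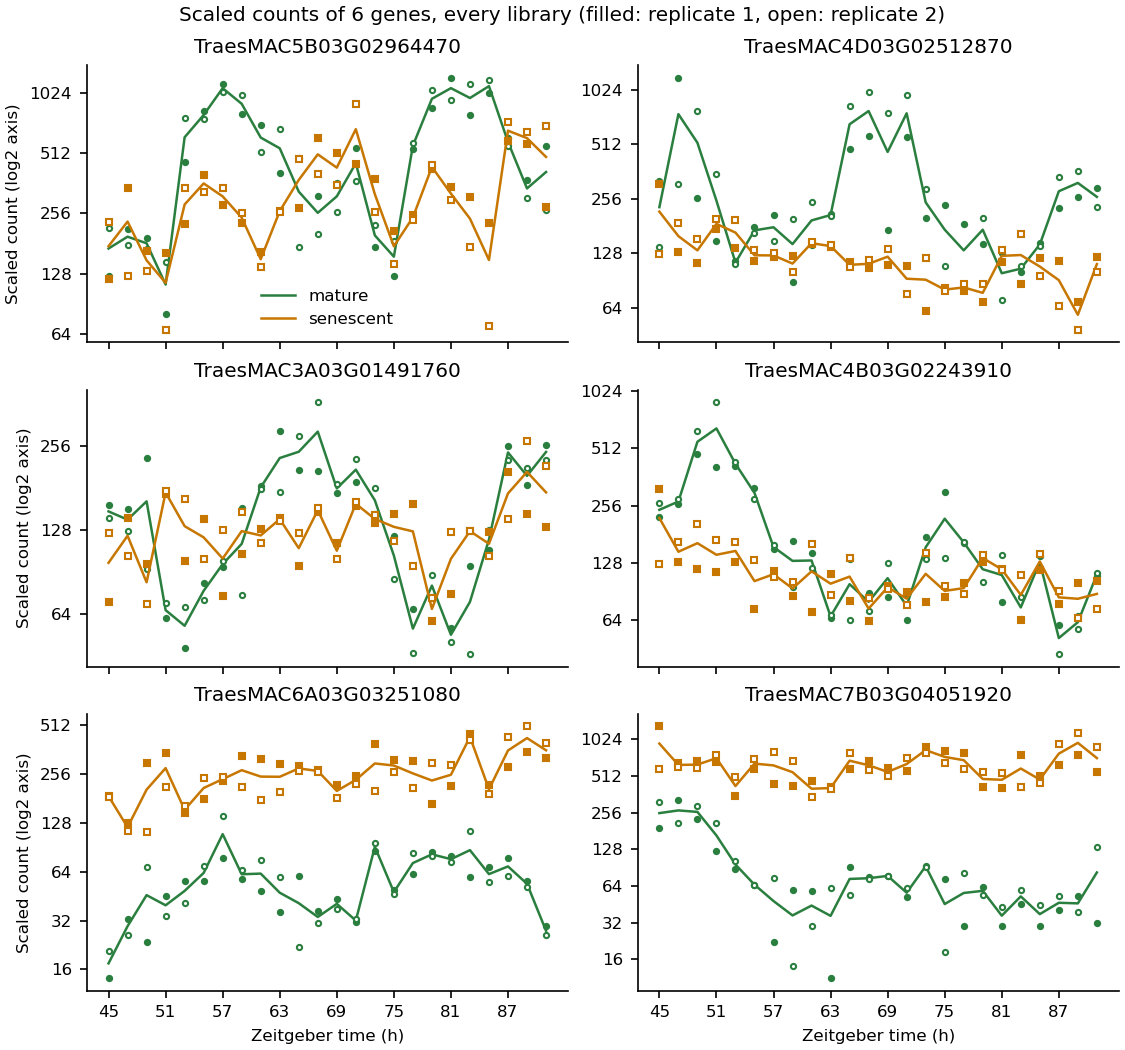
Scaled counts (log2 axis) against Zeitgeber time (h) for 6 genes in mature (green) and senescent (orange) leaves; each point is a library (filled: replicate 1, open: replicate 2) and lines join the means. TraesMAC5B03G02964470 reaches 1213 in mature leaves and keeps moving in senescent ones, TraesMAC4D03G02512870 falls slowly near its mature trough when senescent, and TraesMAC7B03G04051920 lies above its mature values throughout.

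The 117 genes peaked at 2 main times of the mature day. Of them 43 peaked from 6 to 12 h (36.8%, against 22.7% of the 2713 genes with a strong mature wave) and 46 from 18 to 24 h (39.3%, against 57.1%). A further 18 peaked from 0 to 6 h and 10 from 12 to 18 h. Put the other way, 6.97% of the strong genes that peaked from 6 to 12 h flattened, and 2.97% of those that peaked from 18 to 24 h. These shares are descriptions, since the rule used the waves.

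**Figure D4:**
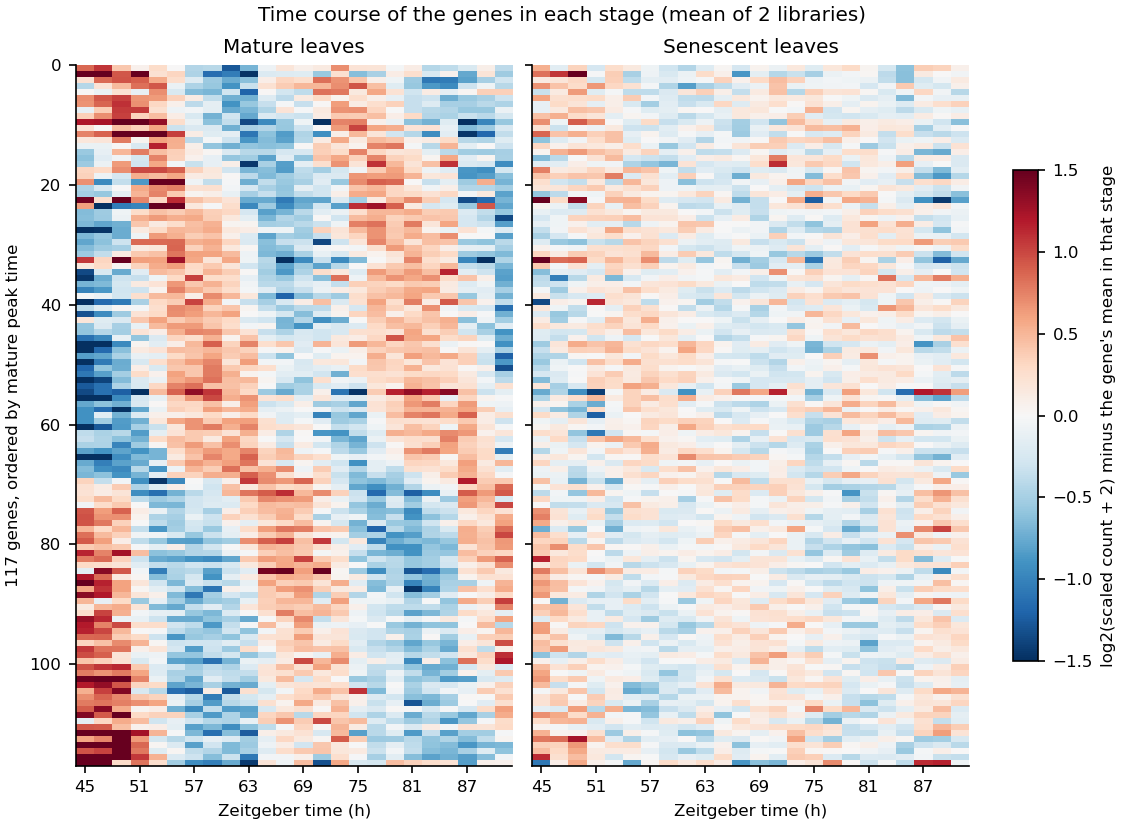
Time course of the 117 genes in mature (left) and senescent (right) leaves, ordered by mature peak time; colour is log2(scaled count + 2), mean of 2 libraries, minus the mean of the gene in that stage, against Zeitgeber time (h). Bands of high values recur after 24 h in mature leaves, with blocks of 43 genes peaking from 6 to 12 h and 46 from 18 to 24 h, and they are faint in senescent leaves.

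Where the wave could be timed in both stages, it mostly kept its time. Among the 82 genes called rhythmic in both, the median shift, senescent minus mature, was -0.91 h, 68 genes (82.9%) stayed within 3 h and 54 (65.9%) peaked earlier in senescent leaves. Of the 2670 strong genes rhythmic in both stages, 94.6% stayed within 3 h and 84.7% peaked earlier. A shallow wave gives a less certain peak time. With the best period from 18 to 32 h for each gene, 100 of the 117 stayed under 0.6 log2 in senescent leaves, 0 reached 1 log2 and the highest was 0.93 log2. That period lay at an end of the range for 25 of the 117 (21.4%, against 1.18% of the 2713 strong genes and 9.73% of the 20577), where it is not determined.

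The time-averaged level was not used to set the wave thresholds, though the mean of at least 50 in each stage kept out genes that were nearly silent in a stage. In limma 51 of the 117 genes were higher in senescent leaves (35.2% of all tested genes were) and 43 were lower (34.6% of all tested). The median log2 change was 0.04, against 0.0050 over all tested genes. In either direction 94 of the 117 were called (80.3%, against 69.8% of all tested genes, 74.9% of those with a mean of at least 50 and 78% of the 2713 strong ones), a share near that of other genes of like level and wave. A rise of at least 1 log2 was called for 13 (4.74% of all tested genes) and a fall of that size for 4 (5.18%).

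TraesMAC7B03G04051920 rose most. It ran from 11.2 through a median of 62.0 to 325 scaled counts in mature leaves and from 343 through 592 to 1309 in senescent leaves, so no library of the 2 stages overlapped. Its log2 change was 3.16 ± 0.12 (SE, limma adjusted p 2.14e-44). Its mature wave was 3.05 log2 in the first cycle and 0.69 log2 in the second, and its rhythm difference did not pass the test (adjusted p 0.142).

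TraesMAC6A03G03251080, among the 14 genes that met the thresholds throughout, rose from 55.9 ± 25.4 to 260 ± 88.96 scaled counts (SD, n = 48 each), with ranges of 14.1 to 140 and 112 to 502 that barely overlapped. Its log2 change was 2.24 ± 0.085 (SE, limma adjusted p 6.32e-44). TraesMAC1B03G00330950 had the lowest senescent wave of all, 0.05 ± 0.11 log2 (SE), and its mean rose from 142 to 443 scaled counts. With every library set to the same total, its waves were 0.96 log2 when mature and 0.22 log2 when senescent. It then missed the mature threshold and no longer had the lowest senescent wave. TraesMAC1B03G00364530 rose by 1.28 ± 0.079 log2 (SE, limma adjusted p 3.74e-28) and its wave went from 1.44 to 0.26 log2. Unlike those of TraesMAC7B03G04051920, the values of these genes overlapped between stages: TraesMAC1B03G00330950 ran from 47.8 to 429 in mature and from 276 to 622 in senescent leaves, and TraesMAC1B03G00364530 from 22.4 to 218 and from 120 to 293.

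Of the genes that fell, TraesMAC4A03G02157940 ran from 83.4 through 166 to 403 scaled counts in mature leaves and from 38.4 through 69.6 to 137 in senescent leaves, a log2 change of -1.29 ± 0.069 (SE, limma adjusted p 2.08e-32). TraesMAC4B03G02358640 ran from 163 through 381 to 662 and from 84.97 through 174 to 282, a log2 change of -1.16 ± 0.071 (SE, adjusted p 3.9e-28). In both, the senescent time average lay under the fitted mature trough. The largest fall was that of TraesMAC7D03G04425490, from a mean of 354 to 111 scaled counts.

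Set against the daily range, the senescent level of 78 genes (66.7%) lay between the mature trough and peak, that of 27 (23.1%) above the peak and that of 12 (10.3%) below the trough. Among the 2713 strong genes these shares were 78.6%, 10.9% and 10.5%. At the mature peak time senescent leaves were lower by a median of 0.41 log2 (a difference of -0.41), and at the mature trough time they were higher by a median of 0.45 log2. A lower peak with a higher trough was found for 57 genes, both lower for 26 and both higher for 34. A lower wave makes the first pattern likely by construction, so the split describes the genes and tests nothing.

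**Figure D5:**
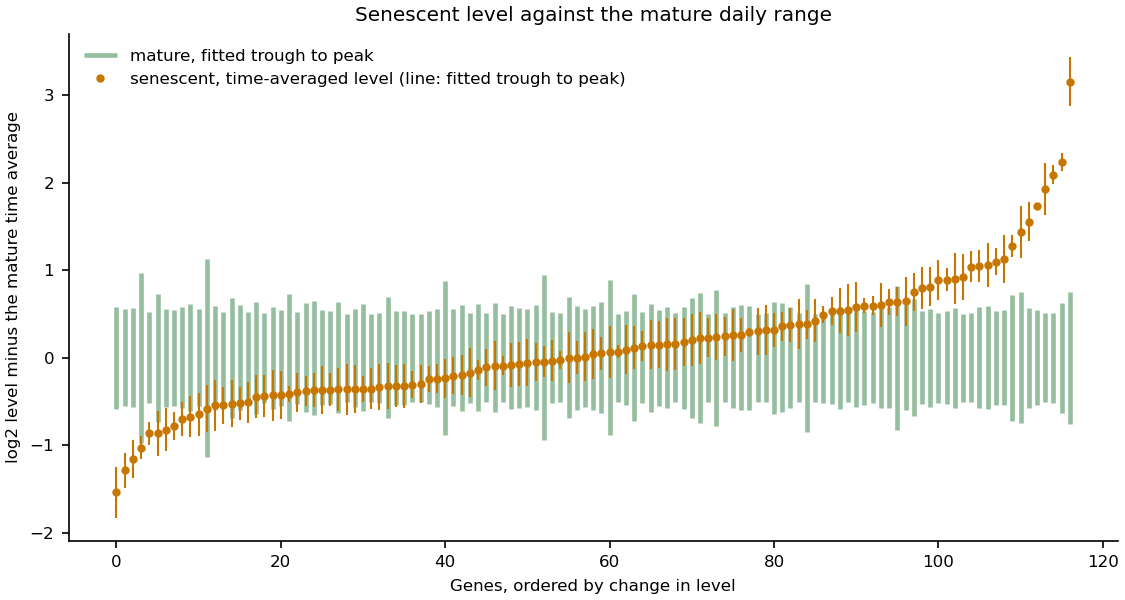
Log2 level relative to the mature time average for the 117 genes, ordered by change in level; green bars run from the fitted mature trough to peak, orange points are the senescent time average and orange lines its fitted trough to peak. The senescent level lies inside the mature range for 78 genes, above it for 27 and below it for 12.

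Drift, the straight-line change over the series, is fitted beside the wave. In mature leaves 24 of the 117 drifted (4.25% of all tested genes), 5 upward (1.6% of all tested genes in limma) and 19 downward (2.65%). In senescent leaves 36 drifted (19.8% of all tested genes), 10 upward (7.18%) and 26 downward (12.6%). Among strong genes 12.8% drifted in mature and 38.5% in senescent leaves, against 20.5% and 30.8% of the 117. The drift itself differed between stages for 9 genes (2.42% of all tested genes). By the smallest drift p, 2 genes per stage are named; TraesMAC4B03G02243910 is given above and the others were TraesMAC4D03G02512870 in senescent leaves, with the value given above, TraesMAC4D03G02418830 in senescent leaves, at -0.79 ± 0.15 log2 (SE, limma adjusted p 8.49e-05), and TraesMAC3A03G01424640 in mature leaves, at -0.85 ± 0.16 log2 (adjusted p 0.000613). Without replicate 1 the calls were 0 in mature leaves (0.0636% of all tested genes) and 14 in senescent leaves (7.87%), and without replicate 2 they were 2 (0.589%) and 10 (5.83%).

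A 12 h wave was called for 0 of the 117 genes in mature leaves (0.332% of all tested genes in limma; 7 had an unadjusted p under 0.05, as had 3108 of the 42428 tested) and for 3 in senescent leaves (1.21% of all tested genes). TraesMAC4A03G02155360 had a 12 h peak-to-trough of 0.67 log2 (limma adjusted p 0.00216) and TraesMAC5D03G03046980 one of 0.94 log2 (adjusted p 0.0276). The third, TraesMAC5B03G02867100, had 0.55 log2 (adjusted p 0.044). No gene differed between stages in the 12 h wave by limma (0 of the 117, 5 at an unadjusted p under 0.05, as had 3053 of the 42428 tested; 0% of all tested genes), and with a single replicate the senescent count was 0.

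The spread between replicates was lower in senescent leaves. The median SD between the 2 libraries of a time point was 0.39 log2 when mature and 0.26 log2 when senescent, and it was lower in senescent leaves for 104 of the 117 genes (88.9%, against 87.3% of the 20577 genes). The part of this spread in the choice of the genes was not tested.

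By position, 46 genes lay on the A (39.3%), 36 on the B (30.8%) and 35 on the D subgenome (29.9%). Among the strong genes these shares were 33.3%, 32.3% and 34.4%. Chromosome 3A held 13 (11.1%, against 5.12% of the strong genes) and 4D held 10 (8.55%, against 4.35%). A few had identifiers close to each other: TraesMAC3A03G01424630 and TraesMAC3A03G01424640, adjacent in the list, peaked at 19.14 and 19.13 h and had r = 0.839 over the 48 mature libraries, which share depth and time of day. TraesMAC6D03G03740840 and TraesMAC6D03G03740890, and TraesMAC6A03G03355280 and TraesMAC6A03G03355340, were alike (r = 0.879 and 0.891). TraesMAC4D03G02512870 and TraesMAC4D03G02513010, 14 genes apart, were not: they peaked at 20.36 and 13.96 h, with r = 0.103 over the mature and 0.142 over the senescent libraries. Whether such pairs share reads was not tested.

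Setting the libraries to equal totals changed which genes passed. Of the 117, 115 passed with libraries scaled by the median of gene ratios and 110 with log2(FPKM + 0.1). Both lie close to the deposited scale, so little change was likely and they are no independent checks. As deposited, the median stage change was already 0.0050 log2, and division by gene length leaves the wave of a gene nearly unchanged. The library totals themselves followed the day, cresting at 22.3 h in the mature and 20.3 h in the senescent stage, with fitted heights of 0.21 ± 0.034 and 0.24 ± 0.019 log2 (SE). With every library set to the same total, 113 genes passed, but only 45 of them were among the 117 (38.5%). The mature wave stayed the higher of the 2 stages for all 117 at that scaling. The smallest difference among them was 0.41 log2 as deposited, above either height of the totals. The choice therefore made this outcome likely, and it tests nothing. Of the genes lost, 35 missed the mature threshold only and 36 the senescent threshold only. Genes that peaked from 6 to 12 h had medians of 1.32 log2 when mature and 0.64 log2 when senescent at equal totals, and genes that peaked from 18 to 24 h had 0.96 and 0.32 log2. Of the 14 genes that met the thresholds in each replicate and cycle, 11 still passed. At equal totals 68 of the 117 were called higher and 26 lower in senescent leaves, against 60% and 18.1% of all tested genes, and the median change of all tested genes went from 0.0050 to 0.24 log2.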

How the data were processed

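RNA of whole flag leaves was sequenced in 96 libraries. Per the submitters' processing notes, bcl2fastq (version 2.17), STAR, Cufflinks and Cuffnorm were used; the genome build and annotation are not given in the sources used here. The deposited count values are a signal, read counts that the authors multiplied by a factor for each library: at least 99.968% of values under 100 steps of a library's smallest unit were whole multiples of it within 0.01, and reads were estimated from it. The deposited FPKM values by the authors, scaled by gene length, served as an alternative. A second deposited table repeated the senescent values with 0 differences.

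Because values were scaled, no count model was run. limma 3.58.1 (variance trend) in R 4.3.3, with data.table (version 1.17.8), was fitted to log2(scaled count + 2), which understates changes of low genes. Genes with a mean of at least 10 were tested, with Benjamini-Hochberg adjustment over 42428 genes and a threshold of 0.05. Rhythm was tested by 24 h cosine and sine, and cycles were fitted without the straight line. The fits were tested on simulated data. Genes picked for naming were the 10 largest wave differences, 2 per 6 h peak window and the edges of each threshold. The 2 smallest p in each level direction with at least 1 log2, and 2 per stage for drift and for the 12 h wave, were also picked. Of these, TraesMAC7B03G04179700, TraesMAC3D03G01987920, TraesMAC3B03G01724650 and TraesMAC5A03G02658660 are not described above. TraesMAC1B03G00330950, TraesMAC7D03G04425490, TraesMAC5B03G02867100, TraesMAC7A03G04031220, TraesMAC4B03G02383990, TraesMAC3B03G01635850 and the genes of close identifiers or differing drift were added after their values were seen. The members, lists and tests were chosen with earlier results of these data known.

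Replicate numbers did not pair samples: the correlation of same-numbered deviations between stages ranged from -0.2 to 0.13 and passed 0.1 at 3 of 24 time points. Replicates are pools of separate leaves. Alternatives covered pseudocount, scaling, filters, period, time points and replicates.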

Additional observations from a re-analysis of the deposited data

Results flagged for a closer look

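For 9 of the 117 genes the drift differed between stages by the limma test of the difference itself (7.69%, against 2.42% of all tested genes), and they are listed for that reason. In 3 genes the mature series fell and the senescent series changed less: TraesMAC6D03G03740890 (adjusted p 0.0408) went by -1.44 ± 0.28 log2 when mature and -0.22 ± 0.19 log2 when senescent (SE), TraesMAC6A03G03355340 (adjusted p 0.0483) by -1.45 ± 0.28 and -0.33 ± 0.17 log2, and TraesMAC7B03G04051920 (adjusted p 0.0241) by -1.36 ± 0.39 and 0.30 ± 0.20 log2.

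In the other 6 the slope was upward in mature and downward in senescent leaves, and all 6 had a mature peak between 7.8 and 12.4 h. The adjusted p of the difference in limma was 0.00766 for TraesMAC5A03G02563690, 0.0093 for TraesMAC3A03G01472190, 0.0147 for TraesMAC7D03G04390180, 0.0158 for TraesMAC2B03G01075810, 0.0182 for TraesMAC3D03G01948530 and 0.0459 for TraesMAC2A03G00686490. TraesMAC5A03G02563690 alone among them passed in mature leaves, with 0.90 ± 0.26 log2 (SE, adjusted p 0.0364), and fell by 0.47 ± 0.16 log2 in senescent leaves (adjusted p 0.0287). TraesMAC3A03G01472190 fell by 0.84 ± 0.17 log2 in senescent leaves (adjusted p 0.000245). Without either replicate the count of 9 went to 0, and without the 2 mature libraries least like their stage, an alternative chosen after seeing the data, it went to 2.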

How the results depend on the processing

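Of 250 counts and shares recomputed under alternatives, 219 stayed within 1.5 times the reported value and 31 did not. For the gene set this compares how many genes passed, not which ones. Of the 117, 45 stayed at equal library totals, 72 without replicate 1, 74 without replicate 2 and 115 with the median of gene ratios. Of 846 values of named genes, 0 were scored as reversed and 793 as the same. The cause of the moves was not tested, beyond fewer libraries or genes where a setting leaves them out. Genes that met the thresholds numbered 117, 227 at a mean of at least 20, 63 at a mean of at least 100, 41 at a senescent wave under 0.4 log2, 9 at a mature wave of at least 1.5 log2, and 166 to 180 without a replicate. Members lower in senescent leaves numbered 26 at equal library totals. Leaving out a replicate gave 0 to 2 drifting members in mature leaves, 10 to 14 in senescent leaves, 0 to 0 for the drift difference, 0 to 0 for the 12 h wave in senescent leaves and 18 to 29 for the rhythm difference, where 1.56% and 2.19% of all tested genes were called. The drift difference gave 5 at a 26 h period, 3 at 28 h, 5 with no filter on low values and 2 without the 2 mature libraries least like their stage. The 12 h wave in senescent leaves gave 1 with no filter. The rhythm difference gave 27 at 28 h, where 1.1% of all tested genes were called. Genes chosen in replicate 1 were called in replicate 2 at 6.00% with a 22 h period (1.96% of all tested genes), 5.33% at 26 h (0.321%), 0% at 28 h (0%) and 6.00% with no filter (0.663%). Those chosen in replicate 2 were called in replicate 1 at 2.67% at 26 h (0.24%), 0% at 28 h (0.00471%) and 4.67% with no filter (0.444%). In these tests within 1 replicate, almost no gene of any kind was called at 28 h. Genes chosen in the first cycle were called in the second at 12.0% without ZT45 and ZT91 (5.93%) and 14.7% with no filter (2.07%). With the replicate block 117 genes passed and the rhythm difference was called for 76; it changed no other count by over 1.5 times. At a 28 h period 49 of the 124 genes that passed were among the 117. The planned negative binomial test was not run, because the deposited values are not counts.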
